A study of Mus musculus with 8 samples.

Results

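The 7 genes described here carry chloride, bicarbonate and sodium ions across the intestinal epithelium or supply bicarbonate for that traffic: Cftr, Slc9a3, Slc26a3, Slc26a6, Slc4a4, Car2 and Car4. They were chosen by name, with earlier results of these data known. Of the 7, 6 were measured, out of 14042 genes with a value, by RNA sequencing of mouse crypt organoids. Car4 had no entry and was not analysed here. Organoids were compared between 4 samples of the genotype labelled mg53-tg (MG53-TG), in which MG53 is overexpressed throughout the body, and 4 samples labelled wt (WT), for which the study used wild-type littermates. MG53 is a membrane-repair protein and ubiquitin ligase encoded by Trim72. The organoids are epithelial cultures grown from crypts of the small intestine in Matrigel with IntestiCult OGM medium. Levels of markers of cells outside the epithelium are given below. The labels give no treatment, age or sex, and they do not say whether the samples of a group came from different animals, so the p-values measure the spread between these cultures, which may be technical. The study also describes organoids with an Lgr5-EGFP-IRES-CreERT2 allele, and the labels do not say whether these cultures carried it.

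In the small intestine, fluid is secreted mainly in the crypts and absorbed mainly on the villi. Secretion starts when the sodium-potassium-chloride cotransporter at the basolateral side loads the cell with chloride and the anion channel Cftr releases it into the lumen, with potassium channels keeping the driving force and cyclic AMP or cyclic GMP opening the channel. Absorption of salt without current pairs the sodium-proton exchanger Slc9a3 with the chloride-bicarbonate exchangers Slc26a3 and Slc26a6 in the brush border. Slc4a4 brings sodium and bicarbonate in across the basolateral membrane, cytosolic Car2 makes bicarbonate and protons from carbon dioxide and water, and Car4 is a carbonic anhydrase anchored to the cell surface. Loss of Cftr causes cystic fibrosis, and loss of Slc26a3 in people causes congenital chloride diarrhea.

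The promoter sequences printed here are those of the genes that rose (Slc9a3, Slc26a3 and Slc26a6), of Cftr, which was called in neither direction, and of both starts of Slc4a4, so that their make-up can be set beside the results. Each sequence is the RefSeq window of GRCm38.p6 from 250 bases before to 50 bases after an annotated start, on the plus strand, with the motifs found in capitals. The windows are chr6:18170437-18170736 (Cftr), chr13:74121163-74121462 (Slc9a3), chr12:31437969-31438268 (Slc26a3), chr9:108853793-108854092 (Slc26a6), chr5:88887010-88887309 (Slc4a4, distal start) and chr5:89027716-89028015 (Slc4a4, internal start). The RefSeq start coincides with the start event in the files for Cftr and for the internal start of Slc4a4 and lies within 2 bases of it for Slc26a3. The main start event of Slc9a3 begins 44 bases after it, and the start events of Slc26a6 and of the distal Slc4a4 start begin at positions -695 and -774 relative to it and run across it.
Cftr: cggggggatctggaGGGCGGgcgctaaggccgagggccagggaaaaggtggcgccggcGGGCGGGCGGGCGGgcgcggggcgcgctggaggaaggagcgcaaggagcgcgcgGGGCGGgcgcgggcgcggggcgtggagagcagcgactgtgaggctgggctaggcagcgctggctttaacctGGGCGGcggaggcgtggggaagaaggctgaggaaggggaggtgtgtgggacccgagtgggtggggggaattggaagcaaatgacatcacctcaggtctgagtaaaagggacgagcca
Slc9a3: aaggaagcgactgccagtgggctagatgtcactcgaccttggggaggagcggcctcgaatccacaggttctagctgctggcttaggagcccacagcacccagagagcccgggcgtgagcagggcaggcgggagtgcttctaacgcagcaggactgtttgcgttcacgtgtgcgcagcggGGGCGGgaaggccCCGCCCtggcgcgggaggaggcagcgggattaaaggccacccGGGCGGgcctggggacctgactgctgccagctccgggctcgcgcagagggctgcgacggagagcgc
Slc26a3: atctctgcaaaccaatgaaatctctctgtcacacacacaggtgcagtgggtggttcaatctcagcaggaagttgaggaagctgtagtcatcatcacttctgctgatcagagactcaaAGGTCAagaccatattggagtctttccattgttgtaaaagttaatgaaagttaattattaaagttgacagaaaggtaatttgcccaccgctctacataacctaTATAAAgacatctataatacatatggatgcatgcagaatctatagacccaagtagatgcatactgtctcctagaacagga
Slc26a6: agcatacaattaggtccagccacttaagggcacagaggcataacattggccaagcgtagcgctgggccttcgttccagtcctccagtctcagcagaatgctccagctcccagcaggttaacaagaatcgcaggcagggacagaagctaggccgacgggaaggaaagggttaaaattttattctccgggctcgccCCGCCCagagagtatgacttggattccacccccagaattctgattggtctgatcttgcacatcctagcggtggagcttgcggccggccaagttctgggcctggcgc
Slc4a4 distal: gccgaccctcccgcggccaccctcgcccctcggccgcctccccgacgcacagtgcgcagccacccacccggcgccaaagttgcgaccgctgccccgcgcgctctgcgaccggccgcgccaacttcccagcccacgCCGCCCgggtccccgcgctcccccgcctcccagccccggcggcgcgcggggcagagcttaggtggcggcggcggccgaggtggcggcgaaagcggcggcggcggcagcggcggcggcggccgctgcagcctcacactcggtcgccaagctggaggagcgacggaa
Slc4a4 internal: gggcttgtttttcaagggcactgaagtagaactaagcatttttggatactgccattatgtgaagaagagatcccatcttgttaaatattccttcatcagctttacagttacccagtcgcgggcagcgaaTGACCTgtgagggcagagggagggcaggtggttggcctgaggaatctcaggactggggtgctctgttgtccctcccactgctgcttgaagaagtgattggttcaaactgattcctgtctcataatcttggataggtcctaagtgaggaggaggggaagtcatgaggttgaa

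Both strands were searched for the GC box GGGCGG, the TATA box TATAAA, the nuclear receptor letters AGGTCA, the GATA letters AGATAA, the CDX letters TTTATNG and the HNF4 letters CAAAGTCCA. The Cftr window had a GC content of 71.3% and held 6 GC boxes, 3 of which overlap by 2 bases each in a tandem run, and the Slc9a3 window held 3 GC boxes at a GC content of 68.7%. The windows of Slc26a6 (56.0% GC) and of the distal start of Slc4a4 (80.0% GC) held 1 each, both on the opposite strand. Of all 32851 promoter windows in the table, 35.7% held a GC box, and the median GC content was 52.7%. The Slc26a3 window differed in make-up, with 39.3% GC, no GC box, a TATA box at position -30 from the start (in 13.6% of all windows) and AGGTCA at position -133 (in 16.3% of all windows). The internal start of Slc4a4 also had AGGTCA, on the opposite strand, and the GATA, CDX and HNF4 letters were in none of these 6 windows. In the windows searched, the 3 genes that rose thus shared none of these motifs, since the GC boxes of Slc9a3 and Slc26a6 were not in the Slc26a3 window. The windows of Slc26a6 and of the distal Slc4a4 start lie inside the listed first exons. The sequence before those listed starts was not searched.

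The values are FPKM, fragment counts scaled by transcript length and sequencing depth, which the authors deposited for single transcript events such as a transcription start or a skipped exon. The level of a gene is the sum over its start events, since for each of the 6 genes it was higher than the sum over its end events. The depth of the samples is unknown. Trim72 was without an entry in every WT sample, and MG53-TG samples 1 to 4 had 16.4, 27.4, 31.9 and 36.5 FPKM of it, as the labels say. The comparison of the groups used limma (adjusted p below refers to it) on the log2(FPKM + 1) scale for 10959 genes, of which 15.5% were higher and 28.9% lower in MG53-TG at the threshold of 0.05. Over all genes, the log2 fold change had a median of -0.17, and median-of-ratios scaling of the samples shifted it by 0.16, to -0.01, and moved the share of higher genes among the calls from 35.0% to 49.9%.

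Cell type markers differed widely between the groups. Of 20 enterocyte markers, 19 were higher in MG53-TG, and their summed level was 1230.1 to 1412 FPKM in WT and 12676 to 14192 FPKM in the MG53-TG cultures. Of the crypt base stem cell markers 9 of 12 were lower, of the proliferation markers 12 of 16, of the goblet markers 6 of 9 tested and of the Paneth markers 11 of 11 tested, and 4 of 10 tested enteroendocrine markers were higher. For MG53;Lgr5 crypt organoids the study reports lower stemness and absorptive markers and higher secretory ones. The stem cell markers here went the same way, as did the 4 enteroendocrine markers called higher, with 0 called lower. The enterocyte, goblet and Paneth markers went the other way. The marker lists used here need not hold the genes that the study used. The study also describes bulk RNA sequencing of organoids from MG53-TG and WT mice, with 4 per group. The labels do not say whether the cultures here are the same as either. Within MG53-TG, samples 1 and 2 stood apart from samples 3 and 4, with summed stem cell markers of 356 and 368 FPKM against 123 and 80.2 FPKM, summed proliferation markers of 521 and 547 against 244 and 167 FPKM, and summed goblet markers of 257 and 335 against 611 and 729 FPKM. Nothing in the labels separates these pairs, so results were also computed without each pair. The pairs were chosen after these values were seen, so p-values from the fits without a pair are descriptive only. Markers of cells outside the epithelium were low, with summed levels of 1.31 to 5.65 FPKM for mesenchyme, 0.609 to 9.24 FPKM for immune cells, 0 to 2.93 FPKM for endothelium and 1.10 to 10.6 FPKM for neural cells over the 8 samples, and Pdgfra, Pecam1 and Csf1r had no entry. Missing values add nothing to these sums. The 0 for endothelium (MG53-TG sample 2) lacks Lyve1, and the 1.31 FPKM for mesenchyme (MG53-TG sample 1) lacks Col1a1, Col1a2 and Col3a1. Of the few markers outside the epithelium that could be tested, 2 of 3 for mesenchyme and 1 of 2 for neural cells were higher, 1 of 1 for immune cells was lower and 1 of 1 for endothelium was not called. The higher ones, Col1a2, Col3a1 and S100b, passed the 0.5 FPKM filter only through MG53-TG. Col1a2 and Col3a1 were at 0 in every WT sample, and S100b had a WT mean of 0.238 FPKM. Tuft markers summed to 0.467 to 3.41 FPKM, with the 1 tested gene not called and without an entry for Dclk1, and colon markers, 2 of 3 tested being lower, to 9.34 to 16.6 FPKM, most of it from Slc26a2 and Muc4 and without an entry for Car1. In these bulk samples, fewer cells of a type and less RNA per cell cannot be told apart, and the part of the enterocyte, stem cell and secretory markers in the results below was not tested.

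The 3 apical absorptive exchangers were several times higher in MG53-TG than in WT organoids, whereas Cftr, Slc4a4 and Car2 passed the threshold in neither direction. Slc26a6 was 11.7-fold, Slc9a3 10.3-fold and Slc26a3 3.57-fold higher by the means. Thus 3 of 6 genes were higher, where 15.5% of all genes tested were, and 0 of 6 were lower, where 28.9% were, with 1 (Slc4a4) lower at an unadjusted limma p of at most 0.05. The 6 genes were chosen with earlier results known, so the shares are given for scale and cannot show enrichment. The values of these 3 genes did not overlap between the groups, as for 15.7% of all genes in that direction and 28.8% in the other. The median log2 fold change of the 6 genes was 1.03. Cftr levels were alike in mean but ranged widely within each genotype.

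**Figure D1:**
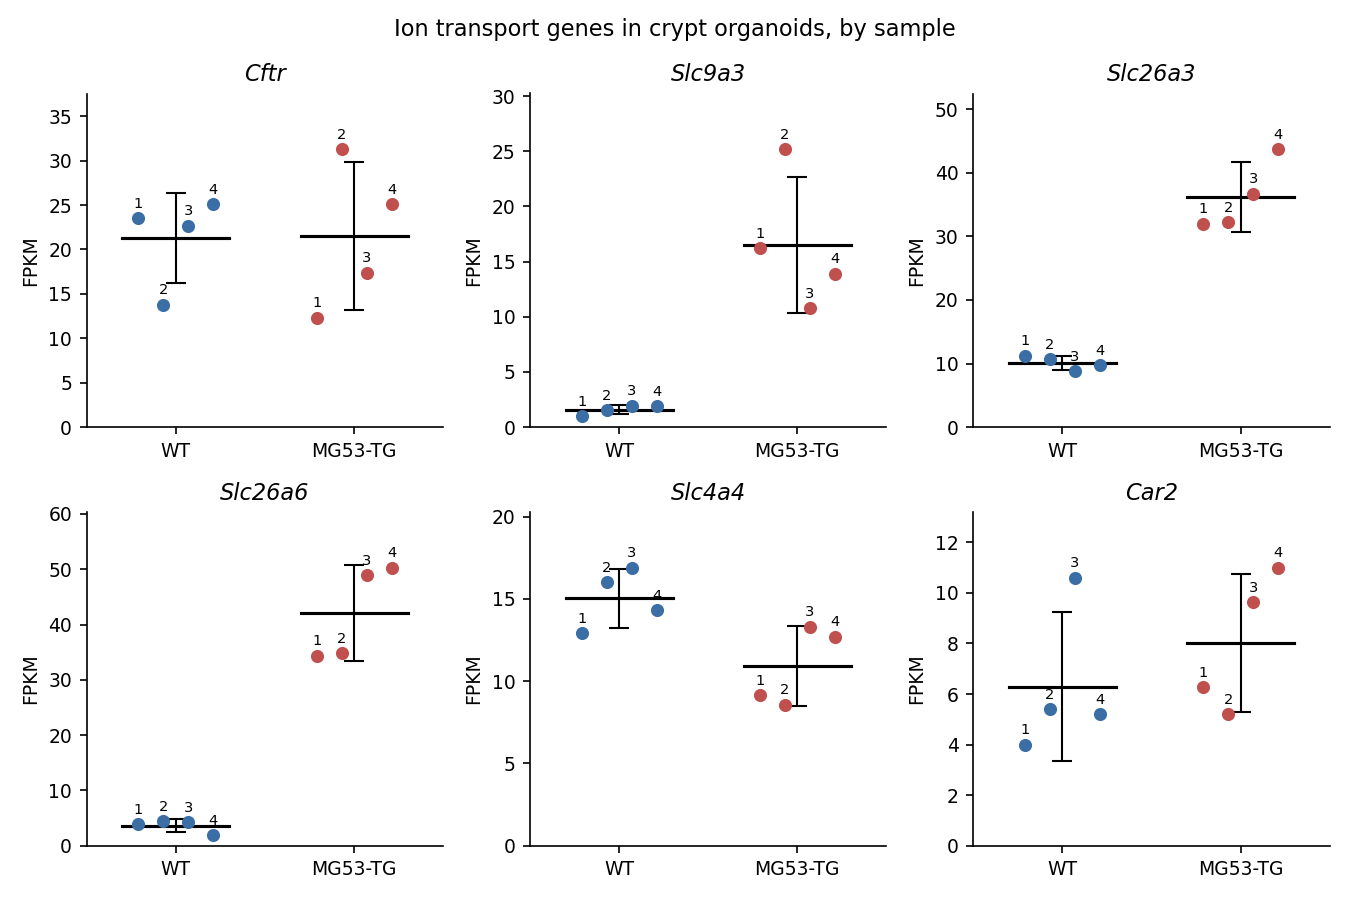
FPKM (linear axis from 0) of the 6 measured genes in each sample, numbered by replicate, WT in blue and MG53-TG in red, with lines for the mean and bars for 1 SD (n = 4). The groups are fully apart for Slc9a3, Slc26a3 and Slc26a6, and they overlap for Cftr, Slc4a4 and Car2.

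Slc9a3 (ENSMUSG00000036123, GRCm38 chr13:74121457-74169442) encodes NHE3, which takes up luminal sodium in exchange for protons. Its level was 1.01, 1.54, 1.94 and 1.9 FPKM in WT samples 1 to 4 and 16.2, 25.2, 10.8 and 13.9 FPKM in the MG53-TG cultures 1 to 4. Every MG53-TG value was several times the highest WT value, and the groups did not overlap. The means were 1.60 ± 0.432 and 16.5 ± 6.18 FPKM (SD, n = 4 each), with a log2 fold change of 2.71 (95% confidence interval 2.16 to 3.26, adjusted p = 5.87e-05). The two-sided exact permutation test gave p = 0.0286, which is as small as 4 against 4 samples can give. Among the 10959 genes tested, Slc9a3 had the 94th largest log2 fold change.

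Slc26a3 (ENSMUSG00000001225, chr12:31390871-31473917), the exchanger also called DRA, takes up chloride in exchange for bicarbonate. It was listed at 11.2, 10.7, 8.78 and 9.76 FPKM in WT samples 1 to 4 and at 32.0, 32.2, 36.7 and 43.7 FPKM in the MG53-TG cultures 1 to 4. Replicates lay close together, with SDs of 1.09 and 5.46 FPKM around means of 10.1 and 36.1 FPKM (n = 4 each), and the groups did not overlap. The log2 fold change was 1.73 (95% confidence interval 1.44 to 2.02, adjusted p = 2.31e-05, exact permutation p = 0.0286), the 280th largest of all genes.

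Slc26a6 (ENSMUSG00000023259, chr9:108853283-108913049), also called PAT1, exchanges chloride for bicarbonate and also carries oxalate. The WT samples were at 3.87, 4.44, 4.27 and 1.85 FPKM and the MG53-TG samples at 34.4, 34.8, 48.9 and 50.3 FPKM, again without overlap. The means were 3.61 ± 1.2 and 42.1 ± 8.67 FPKM (SD, n = 4 each). Its log2 fold change of 3.25 (95% confidence interval 2.72 to 3.77, adjusted p = 1.87e-05, exact permutation p = 0.0286) was the 57th largest of all genes and the largest of the 6. The 3 exchangers stayed past the threshold under every alternative and with either pair of MG53-TG samples left out, at log2 fold changes of 3.50 and 2.99 for Slc26a6, 2.37 and 3.04 for Slc9a3 and 1.89 and 1.58 for Slc26a3 without samples 1 and 2 and without samples 3 and 4, respectively. For comparison of size, the summed enterocyte markers had means of 1345 FPKM in WT and 13472 FPKM in MG53-TG.

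Cftr (ENSMUSG00000041301, chr6:18170687-18322768), the anion channel of secretion, was at 23.5, 13.8, 22.7 and 25.1 FPKM in WT samples 1 to 4 and at 12.3, 31.3, 17.4 and 25.1 FPKM in the MG53-TG cultures 1 to 4. Both the lowest and the highest value were in MG53-TG. The means were 21.3 ± 5.09 and 21.5 ± 8.36 FPKM (SD, n = 4 each). The log2 fold change was -0.03 with a 95% confidence interval of -0.69 to 0.63 (adjusted p = 0.945, exact permutation p = 0.914), an interval that includes changes of up to these sizes in either direction. Its sign turned with median-of-ratios scaling (0.15) and after quantile normalization (0.10).

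Slc4a4 (ENSMUSG00000060961, chr5:88886818-89239653) encodes the electrogenic sodium-bicarbonate cotransporter NBCe1. WT samples 1 to 4 were at 12.9, 16.0, 16.9 and 14.3 FPKM and MG53-TG samples 1 to 4 at 9.14, 8.58, 13.3 and 12.7 FPKM. MG53-TG samples 1 and 2 lay under all WT samples, sample 4 lay just under the lowest of them and sample 3 lay within their range. The log2 fold change was -0.44 (95% confidence interval -0.81 to -0.08, adjusted p = 0.0514, exact permutation p = 0.0571), just short of the threshold. It was -0.70 (adjusted p = 0.00656) without MG53-TG samples 3 and 4 and -0.19 (adjusted p = 0.241) without samples 1 and 2, and -0.26 (adjusted p = 0.311) with median-of-ratios scaling. Relative to the median of all genes the log2 fold change was -0.28.

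Car2 (ENSMUSG00000027562, chr3:14886273-14900770) encodes the abundant cytosolic carbonic anhydrase. It was at 3.99, 5.39, 10.6 and 5.20 FPKM in WT and at 6.26, 5.20, 9.63 and 11.0 FPKM in the MG53-TG cultures 1 to 4. WT sample 3 stood well above the others of its group, and MG53-TG samples 3 and 4 were above samples 1 and 2. The log2 fold change was 0.33 (95% confidence interval -0.34 to 1.01, adjusted p = 0.392, exact permutation p = 0.286). It was 0.71 (adjusted p = 0.109) without MG53-TG samples 1 and 2 and -0.04 (adjusted p = 0.929) without samples 3 and 4.

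**Figure D2:**
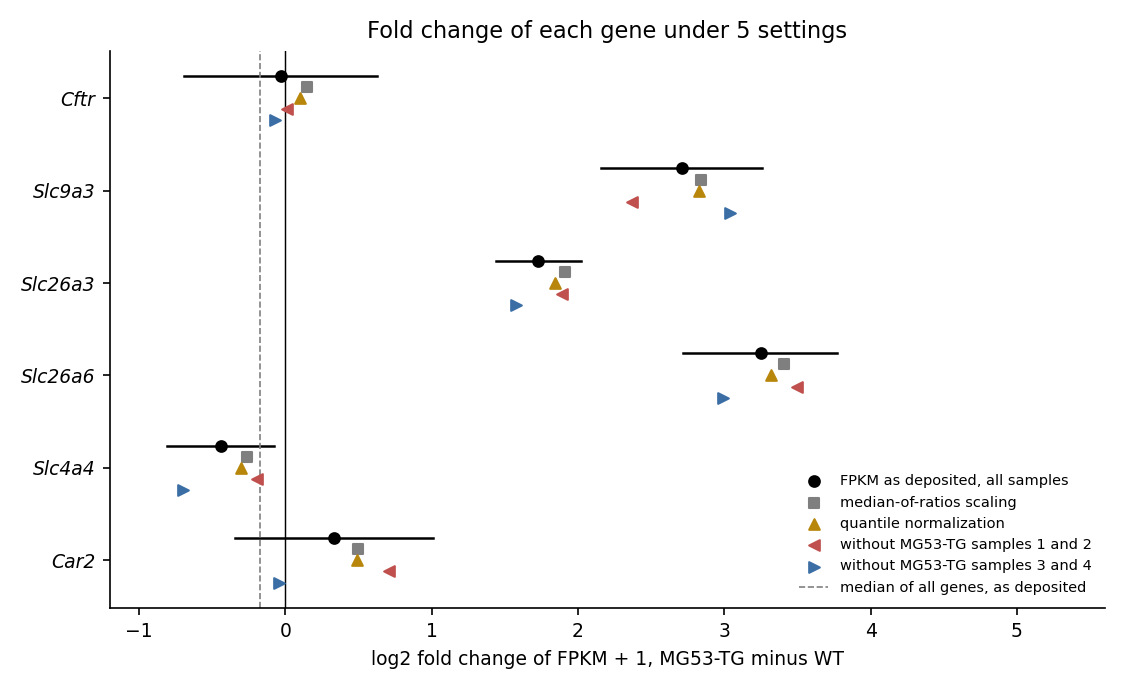
Log2 fold change of FPKM + 1, MG53-TG minus WT, of each gene with all samples as deposited (black, line for the 95% confidence interval), after 2 scalings and without each pair of MG53-TG samples. Points of Slc9a3, Slc26a3 and Slc26a6 lie between 1.58 and 3.50 throughout, and those of Cftr and Car2 lie on both sides of 0.

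The order of the levels, which FPKM allows since it is per length, differed between the genotypes. In WT, Cftr was the highest at a mean of 21.3 FPKM, followed by Slc4a4 at 15.0, Slc26a3 at 10.1, Car2 at 6.30, Slc26a6 at 3.61 and Slc9a3 at 1.60 FPKM. Only Slc4a4 and Slc26a3 among these neighbours had ranges that did not overlap. In MG53-TG, Slc26a6 was the highest at 42.1 FPKM, followed by Slc26a3 at 36.1, Cftr at 21.5, Slc9a3 at 16.5, Slc4a4 at 10.9 and Car2 at 8.03 FPKM, and only Slc26a3 and Cftr were neighbours without overlap (32.0 FPKM at the lowest against 31.3 FPKM at the highest). Slc26a6 thus moved from rank 5 in WT to rank 1 in MG53-TG, Slc4a4 from rank 2 to rank 5 and Slc9a3 from rank 6 to rank 4.

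Ratios of pairs of genes within a sample do not depend on how the samples are scaled, apart from the added 1 FPKM. Of the 4 ratios planned, 3 could be computed, since the ratio of Car4 to Car2 had no value for Car4. The log2 ratio of Slc26a3 over Cftr, an absorptive exchanger over the secretory channel, was -1.0, -0.33, -1.28 and -1.28 in WT samples 1 to 4 and 1.31, 0.04, 1.03 and 0.77 in MG53-TG samples 1 to 4. Every WT culture thus had more Cftr than Slc26a3 and every MG53-TG culture more Slc26a3 than Cftr. The log2 ratio of Slc9a3 over Cftr rose from a mean of -3.08 ± 0.44 to -0.35 ± 0.52 (SD, n = 4 each), and its values did not overlap. The log2 ratio of Slc26a6 over Slc26a3 went from -1.31 ± 0.44 to 0.20 ± 0.14. The values of MG53-TG, 0.10 to 0.41, were close to equal levels, and by end events Slc26a6 (31.7, 30.9, 45.6 and 42.6 FPKM in MG53-TG samples 1 to 4) was above Slc26a3 (31.8, 32.1, 36.5 and 43.5 FPKM) in sample 3 alone. Each of the 3 differences (1.76, 2.73 and 1.52) had an exact permutation p of 0.0286, two-sided, and the same value after adjustment over the 3.

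**Figure D3:**
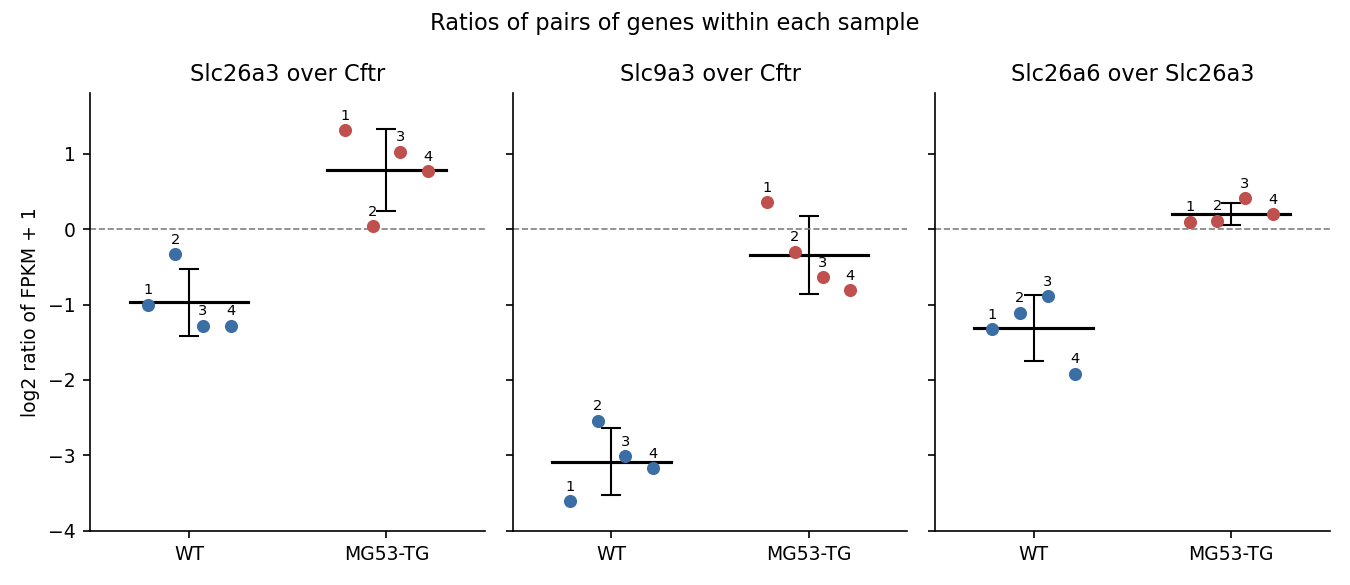
Log2 ratios of FPKM + 1 within each sample for 3 pairs of genes, numbered by replicate, WT in blue and MG53-TG in red, with mean and SD (n = 4). The dashed line at 0 marks equal levels, and in each panel the 4 MG53-TG samples lie above the 4 WT samples.

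For Slc4a4 and Slc26a3, the start events told which of the annotated first exons were in use. Slc4a4 has 2 known main starts, the distal one of the pancreatic and intestinal form and the internal one of the kidney form. The distal start (first exon chr5:88886486-88887324) took 98.5% to 99.8% of the start FPKM in the 8 samples, and the internal start (chr5:89027966-89028428) took 0.217% to 0.784%. The 97-base exon near the end of the coding region (chr5:89232764-89232860), which the brain form leaves out, was in transcripts worth 98.7% to 99.8% of the start FPKM. Both genotypes thus listed almost only the form named for pancreas and intestine. Slc26a3 likewise had 99.2% to 99.8% of its start FPKM at the start whose promoter is printed above (first exon chr12:31438217-31438341).

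The Slc26a6 start events were all listed from chr9:108853348 and differed in where the first exon ended. Annotated transcripts of the gene begin at several positions, among them 108854037, 108854135 and 108855662. The listed coordinate therefore does not show that all transcripts share 1 start or promoter. The form ending at 108854834, annotated in a protein-coding transcript, held 82.2% ± 6.19 of the start FPKM in WT and 76.1% ± 3.32 in MG53-TG (SD, n = 4 each). A form ending at 108854816, which is no annotated boundary, held 19.5% and 19.1% in WT samples 1 and 2, was not listed in WT samples 3 and 4 and held 19.6% to 22.0% in MG53-TG. Car2 used its downstream start (chr3:14886428-14886786) for 93.4% ± 2.71 in WT and 93.7% ± 3.46 in MG53-TG. Only start events listed in all 8 samples were tested, which were 1 Slc26a6 start and both Car2 starts, and none of the 3 passed the threshold (adjusted p of 0.681, 0.960 and 0.956, unadjusted p of 0.263, 0.846 and 0.837), where 0.554% of 5781 start events of all genes did. With unlisted events set to 0, the Slc26a6 form ending at 108854816 and the annotated Cftr start could also be tested and did not pass (adjusted p of 0.564 and 0.720, unadjusted p of 0.0843 and 0.332).

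Slc9a3 transcripts came in a long coding form and in shorter ones. Transcripts with the 250-base exon chr13:74165811-74166060, exon 16 of an annotated coding transcript, were at 0.492, 0.786, 1.07 and 1.29 FPKM in WT samples 1 to 4 and at 11.3, 11.8, 6.79 and 8.18 FPKM in the MG53-TG cultures 1 to 4, which is 10.5-fold higher by the means. Their share of the start FPKM was 55.7% ± 8.45 in WT and 59.6% ± 9.75 in MG53-TG (SD, n = 4 each). A short form that ends in exon 2 (chr13:74130568-74130891) and is annotated as a processed transcript without a coding sequence was at 0.430 to 0.822 FPKM in WT and ranged from 0.133 to 12.9 FPKM in the MG53-TG cultures. MG53-TG sample 2, highest in total Slc9a3, was also the one with 12.9 FPKM of that form, and in the long form it differed little from sample 1.

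Cftr varied widely between samples in a skipped exon. Its forms of 89 bases (chr6:18255953-18256041) and 108 bases (chr6:18255934-18256041) are each annotated as exon 13 of a transcript subject to nonsense-mediated decay, the shorter one also in a retained-intron transcript, and neither is part of an annotated coding transcript. The exon in either form was included at 0%, 9.17%, 77.8% and 69.7% in WT samples 1 to 4 and at 66.1%, 76.3%, 14.0% and 0% in MG53-TG samples 1 to 4. Transcripts without it were at 23.4, 13.9, 5.04 and 7.56 FPKM in WT and at 4.14, 7.39, 14.0 and 23.9 FPKM in the MG53-TG cultures. Both groups spanned almost the whole range, with means of 39.2% and 39.1%, and no test was run. Shares of transcripts are estimates from the same reads as the total, and their error is not given in the files. Cftr in MG53-TG sample 3 also had 3 start events at no annotated boundary that were listed in no other sample and took 18.2%, 28.1% and 4.58% of its start FPKM, so its annotated first exon was at 8.46 FPKM against 17.4 FPKM in total.

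**Figure D4:**
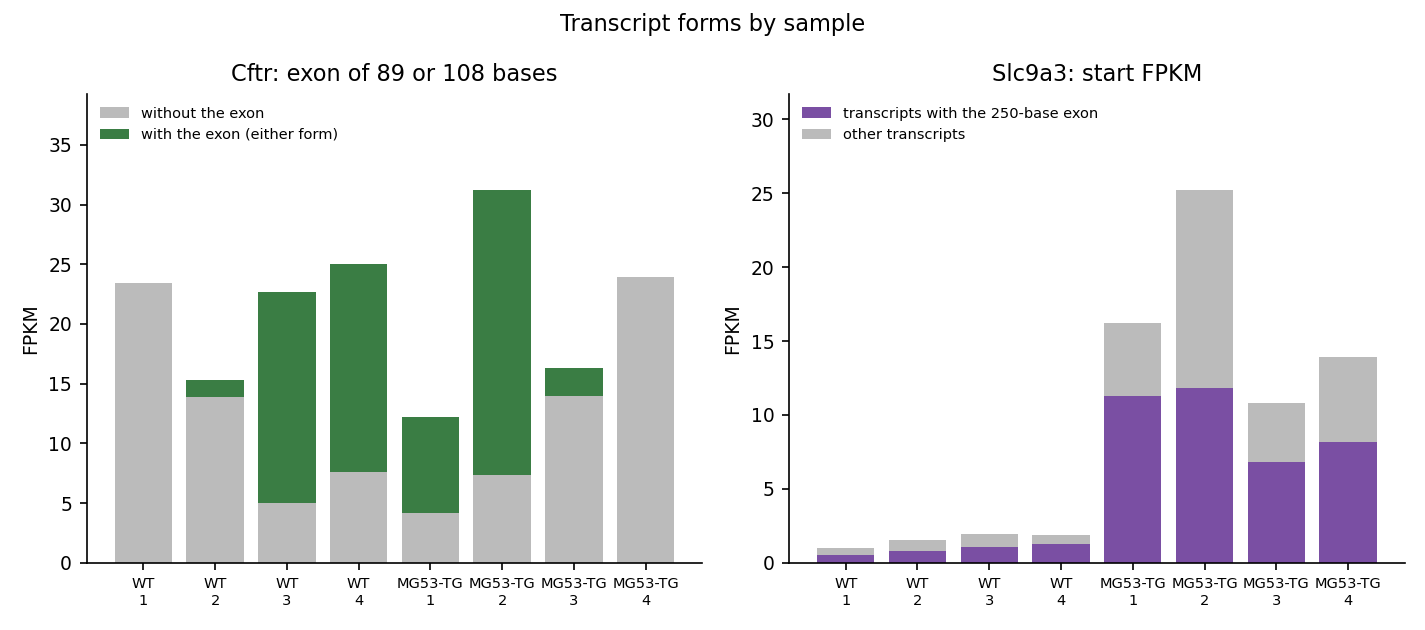
Stacked FPKM (bars from 0) per sample of Cftr transcripts with and without the exon of 89 or 108 bases, and of Slc9a3 start FPKM with and without the 250-base exon of the long coding transcript. Cftr forms vary within both groups from 0% to 77.8% with the exon, and the long Slc9a3 form is 6.79 FPKM or more in each MG53-TG sample and 1.29 FPKM or less in each WT sample.

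In Slc26a3 transcripts that keep 2 consecutive introns (within chr12:31452648-31456998) were listed only in MG53-TG samples 3 and 4, at 5.95 and 8.16 FPKM, 16.2% and 18.7% of the start FPKM. Without these transcripts the 2 samples were at 30.6 and 35.3 FPKM, still above the WT. The end event of Slc26a6 (chr9:108912769-108913049) lies far beyond the end of most of its coding transcripts at 108862143, and was at 4.63 ± 1.5 FPKM in WT and 37.7 ± 7.51 FPKM in the MG53-TG cultures (SD, n = 4 each). An antisense gene, Gm15592, and pseudogenes overlap Cftr and Slc26a3, and they had no entry. Measured by end events, log2 fold changes were 2.80 for Slc26a6 and -0.16 for Cftr. The end events of Slc9a3 were those of short forms alone, the processed transcript and an end at no annotated boundary (chr13:74135702-74139005), with a log2 fold change of 2.23, so they are no second measure of its coding transcripts.

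The genes with the most similar course over the 8 samples were sought for each gene among 9020 protein-coding genes whose mean was 2 FPKM or more, by the root mean square difference of mean-centred log2(FPKM + 1). Nearest to Slc26a3 were Pipox (0.045), a peroxisomal oxidase of amino acids, Pex11a (0.091), a factor of peroxisome division, and Cd302 (0.092). Pipox was at 7.72, 7.44, 5.98 and 6.88 FPKM in WT and at 21.8, 24.6, 25.7 and 32.4 FPKM in the MG53-TG cultures 1 to 4, the same course as Slc26a3 at a lower level. Nearest to Slc26a6 were Cyp2c66 (0.246), Nat8f5 (0.254) and Rbp2 (0.260), the retinol-binding protein of enterocytes, and near to Slc9a3 were Aspg (0.301) and Tcf23 (0.306). Nearest to Cftr were Cldn2 (0.145), a claudin that forms cation pores between crypt cells, Acy1 (0.155) and Pcyox1 (0.194). Cldn2 was at 139.7, 76.5, 134 and 134 FPKM in WT and at 75.7, 152, 119 and 124 FPKM in the MG53-TG cultures 1 to 4, so that the low values in WT sample 2 and MG53-TG sample 1 were shared with Cftr. Nearest to Slc4a4 were Prelid2 (0.077), Marf1 (0.086) and Gfpt1 (0.087), and nearest to Car2 were Akap7 (0.198), Abhd18 (0.199) and Gm11437 (0.205). Among the 6 genes themselves, the smallest difference was between Slc4a4 and Car2 (0.47) and the largest between Slc26a6 and Slc4a4 (1.86).

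Around these genes, 117 other genes of ion and water transport were listed in 7 groups, and 74 of them could be tested. Of the 74, 22 were higher in MG53-TG (29.7%) and 17 lower (23.0%), where 15.5% and 28.9% of all genes were. Their median log2 fold change was 0.07, against -0.17 for all genes. The lists too were chosen with earlier results known, so these shares are for scale and cannot show enrichment. The counts of single lists below are to be set beside the same shares of all genes, and no list was tested as a set.

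**Figure D5:**
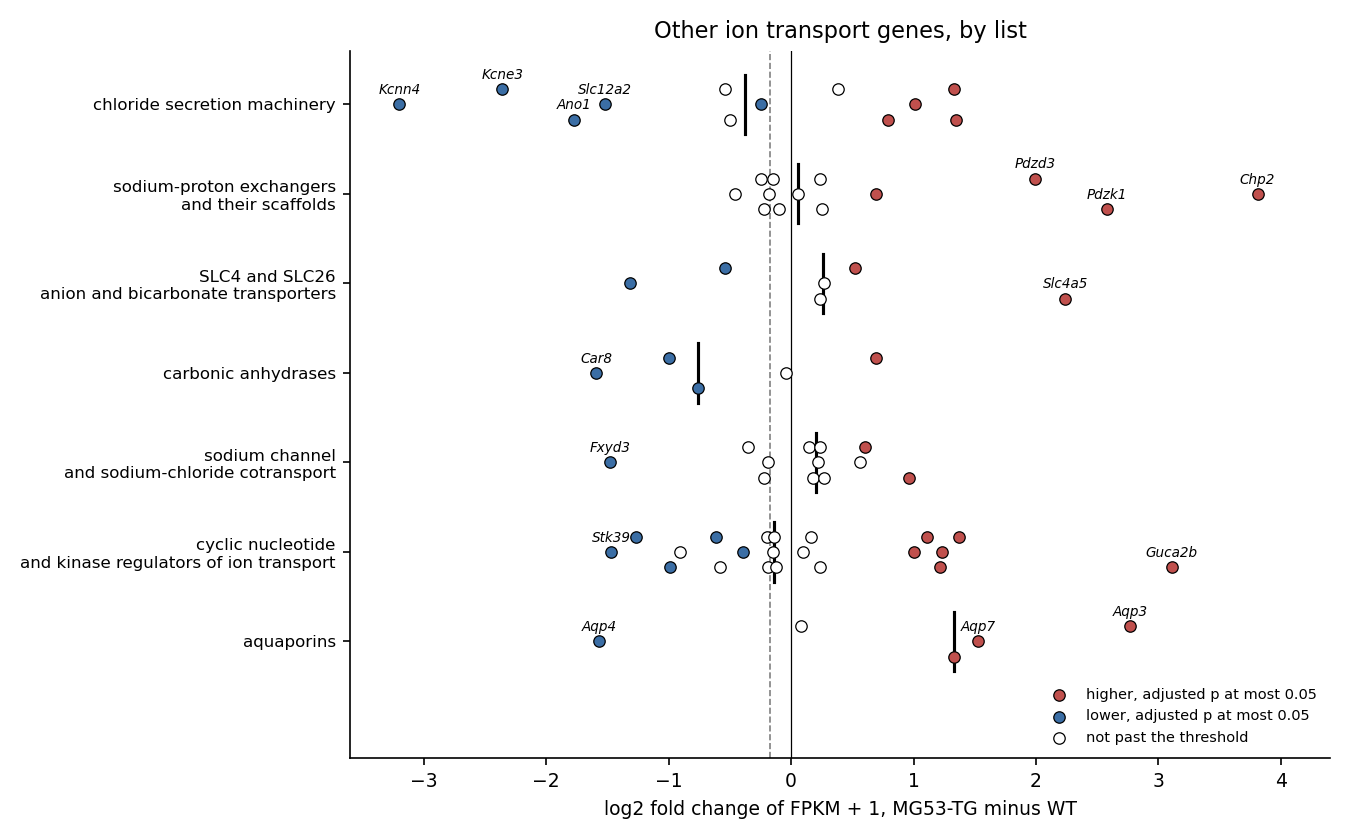
Log2 fold change of FPKM + 1, MG53-TG minus WT, of each tested gene of the 7 lists, red where higher and blue where lower at a adjusted p of at most 0.05 and white otherwise, with a black bar at each list's median and a dashed line at the median of all genes (-0.17). List medians run from -0.76 for the carbonic anhydrases to 1.33 for the aquaporins, and names are given beside the largest changes.

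In the machinery that loads and drives chloride secretion, 5 of 12 tested genes were lower and 4 higher, with a median of -0.38. Slc12a2, the cotransporter NKCC1 that brings chloride into the cell, was at 179, 165, 157 and 176 FPKM in WT and at 109.7, 111, 40.5 and 23.3 FPKM in the MG53-TG cultures 1 to 4 (log2 fold change -1.52, SE 0.46, adjusted p = 0.0258). All MG53-TG samples were below the WT, with samples 3 and 4 far below samples 1 and 2, as for the stem cell marker sum, of which Slc12a2 is itself a part. Leaving out any single WT sample, or MG53-TG sample 3, left Slc12a2 short of the threshold, at adjusted p between 0.0506 and 0.0690. The calcium-activated potassium channel Kcnn4 fell from 13.9 ± 1.76 to 0.614 ± 0.0803 FPKM (SD, n = 4 for both genotypes, log2 fold change -3.20, adjusted p = 5.72e-07). Kcne3, the subunit that opens the potassium channel Kcnq1 in crypts, was at 9.5 to 12.2 FPKM in WT and 0.119 to 4.01 FPKM in the MG53-TG cultures (log2 fold change -2.36, adjusted p = 0.00340). Ano1, a calcium-activated chloride channel, was at 1.83 to 3.36 FPKM in WT and without an entry in the 4 MG53-TG samples (adjusted p = 4.52e-05). It passed the 0.5 FPKM filter only through WT, where its mean was 2.45 FPKM. Kcnq1 itself was at 48.7 ± 1.70 and 35.6 ± 12 FPKM and did not pass the threshold (adjusted p = 0.0865). The sodium pump subunit Atp1b3 did not pass either (40.3 ± 4.48 and 29.0 ± 11.5 FPKM, adjusted p = 0.118). Without MG53-TG samples 1 and 2 both passed, with log2 fold changes of -0.92 for Kcnq1 (adjusted p = 2.28e-04) and -1.04 for Atp1b3 (adjusted p = 5.66e-04), and without samples 3 and 4 they were at -0.08 and -0.04 and did not. Among the 4 higher genes, and named after their values were seen, were the sodium pump subunit Atp1b1, the chloride channel Clcn2 and the potassium channel Kcnk5, and the fifth lower gene was Clcn3 (log2 fold change -0.25, adjusted p = 0.0480). Clcn3 lost its call with any 1 of the 8 samples left out (adjusted p between 0.0611 and 0.128), with median-of-ratios scaling (-0.06) and after quantile normalization (-0.14). Atp1b1 was at 327 to 383 FPKM in WT and 673 to 815 FPKM in the MG53-TG cultures (log2 fold change 1.01, adjusted p = 6.36e-05).

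Of the sodium-proton exchangers other than Slc9a3 and their scaffolds, 4 of 13 tested genes were higher and 0 lower by limma at the adjusted threshold or at an unadjusted p of at most 0.05, with a median of 0.06, and all 4 were partners or scaffolds, not exchangers. Chp2, a calcium-binding partner of the exchangers, was at 2.84 to 4.83 FPKM in WT and at 46.2 to 113 FPKM in the MG53-TG cultures (log2 fold change 3.81, SE 0.27, adjusted p = 1.75e-05). The PDZ scaffolds Pdzk1, Pdzd3 and Slc9a3r1, which bind Slc9a3 and Cftr below the brush border, had log2 fold changes of 2.58, 1.99 and 0.69 (adjusted p of 1.60e-04, 7.21e-05 and 1.90e-04). None of these scaffolds overlapped between the groups, as for 15.7% of all genes in that direction. Pdzk1, with a WT mean of 0.202 FPKM, passed the 0.5 FPKM filter only through MG53-TG. Slc9a3r1, which is NHERF1, rose from 61.3 ± 0.377 to 99.3 ± 6.05 FPKM (SD, n = 4 each). The scaffold Slc9a3r2, which is NHERF2, was at 0.648 ± 0.291 and 0.944 ± 0.351 FPKM, with overlapping groups, and did not pass (log2 fold change 0.24, adjusted p = 0.329, named after its value was seen). The exchangers Slc9a2, Slc9a4 and Slc9a8, named after their values were seen, had log2 fold changes of 0.25, -0.18 and -0.15 and did not pass the threshold. Slc9a2 passed with median-of-ratios scaling (0.41, adjusted p = 0.0467) and after quantile normalization (0.41, adjusted p = 0.0480), and Slc9a8 turned to 0.02 and 0.01 there. Ezr, the linker of these scaffolds to actin, was at 114 ± 11.3 and 106 ± 1.38 FPKM (adjusted p = 0.376), and Chp1 was at 79.0 ± 7.0 and 82.6 ± 6.99 FPKM (adjusted p = 0.627).

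Of the SLC4 and SLC26 relatives, 2 of 6 tested genes were higher and 2 lower, with a median of 0.26, and 7 of 17 had no entry. Slc4a5, a sodium-bicarbonate cotransporter, rose from 0.607 ± 0.202 to 6.78 ± 2.26 FPKM (SD, n = 4 for both genotypes, log2 fold change 2.24, adjusted p = 5.23e-05). Slc4a11 was at 1.58 to 2.41 FPKM in WT and was listed in MG53-TG sample 2 alone, at 0.623 FPKM (log2 fold change -1.32, adjusted p = 8.38e-04). With an MG53-TG mean of 0.156 FPKM, it passed the 0.5 FPKM filter only through WT. The sulfate transporter Slc26a2 fell from 9.37 ± 0.442 to 6.18 ± 1.07 FPKM (log2 fold change -0.54, adjusted p = 0.00856). The basolateral chloride-bicarbonate exchanger Slc4a2 was at 21 ± 1.86 and 25.2 ± 3.85 FPKM (adjusted p = 0.145, and 0.00815 with median-of-ratios scaling), and Slc26a11 was at 1.06 ± 0.255 and 1.48 ± 0.232 FPKM (adjusted p = 0.136). Slc4a7, a further sodium-bicarbonate cotransporter, was the other higher gene, named after its value was seen (log2 fold change 0.52, adjusted p = 0.0399), and its values overlapped between the groups. Slc4a7 lost its call without WT sample 1 or 3 or MG53-TG sample 2, 3 or 4 (adjusted p between 0.0599 and 0.0938) and without a filter (0.0517).

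The carbonic anhydrases other than Car2 and Car4 had 3 lower and 1 higher gene among 5 tested, with a median of -0.76. Car8, a relative without enzyme activity, was at 1.93 to 2.54 FPKM in WT and at 0 to 0.184 FPKM in the MG53-TG cultures (log2 fold change -1.59, adjusted p = 3.26e-05). Car12, a membrane enzyme, was at 2.22 ± 0.444 FPKM in WT (n = 4) and 0.603 ± 0.139 FPKM in the MG53-TG cultures (SD, n = 3, sample 4 missing, adjusted p = 0.00166). Car3 had a log2 fold change of -0.76 (adjusted p = 0.0154), and these 3 genes were below 3 FPKM throughout. Car8 and Car3, with MG53-TG means of 0.0807 and 0.202 FPKM, passed the 0.5 FPKM filter only through WT. Car13, a cytosolic enzyme like Car2, was at 15.5, 14.5, 14.3 and 14.1 FPKM in WT and at 23.1, 24.1, 24 and 25.2 FPKM in the MG53-TG cultures (log2 fold change 0.69, adjusted p = 3.23e-04), with less spread than Car2. The highest level in this list was that of Car9, a membrane enzyme known to respond to low oxygen, at 94.1 ± 8.02 and 94.8 ± 28.9 FPKM (adjusted p = 0.893).

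In the list of the sodium channel and of sodium-chloride cotransport, Scnn1b and Scnn1g, 2 subunits of the epithelial sodium channel, and Slc12a1 had no entry. The channel subunit Scnn1a, named after its value was seen, was at 1.2 ± 0.310 and 2.34 ± 1.08 FPKM and did not pass the threshold (log2 fold change 0.56, adjusted p = 0.0677), but passed without MG53-TG sample 2 (0.70, adjusted p = 0.0308) and without samples 1 and 2 (0.87, adjusted p = 0.0135). In this list 2 of 12 tested genes were higher and 1 lower, with a median of 0.20. The sodium pump modulator Fxyd3 fell from 3.57 ± 0.585 to 0.628 ± 0.0661 FPKM (SD, n = 4 for both genotypes, log2 fold change -1.48, adjusted p = 4.77e-05). The kinase Sgk2 was at 0 to 0.0816 FPKM in WT and 0.662 to 1.17 FPKM in the MG53-TG cultures (log2 fold change 0.96, adjusted p = 5.50e-04). Its mean of 0.511 FPKM passed the 0.5 FPKM filter only through MG53-TG, and leaving out any MG53-TG sample took it under that filter, so its call was tested in 4 of the 8 fits that leave out a sample. Nedd4l, a ubiquitin ligase of the channel named after its value was seen, was the other higher gene (log2 fold change 0.60, adjusted p = 0.0320), and its groups overlapped. Nedd4l lost its call without WT sample 1, 3 or 4 or MG53-TG sample 3 or 4 (adjusted p between 0.0681 and 0.0844), and without MG53-TG samples 3 and 4 together it was at 0.31 (adjusted p = 0.202). The channel-activating protease Prss8 was at 18.9 ± 3.20 and 16.8 ± 6.15 FPKM (adjusted p = 0.512) and the cotransporter Slc12a7 at 13.8 ± 0.408 and 16.9 ± 2.22 FPKM (adjusted p = 0.0802, and 0.0363 with median-of-ratios scaling).

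Among regulators of ion transport through cyclic nucleotides and kinases, 6 of 21 tested genes were higher and 5 lower, with a median of -0.14. Guca2b, which encodes the gut peptide uroguanylin, was at 51.1, 46.5, 59.2 and 64.4 FPKM in WT and at 328, 348, 676 and 700.2 FPKM in the MG53-TG cultures 1 to 4 (log2 fold change 3.11, SE 0.27, adjusted p = 4.71e-05). Its receptor Gucy2c and the kinase Prkg2, which acts on Cftr and Slc9a3 after cyclic GMP rises, were also higher and were named after their values were seen, with log2 fold changes of 1.23 and 1.22 (adjusted p of 0.00486 and 0.00321). The sister peptide guanylin, Guca2a, was at 43.2, 43.8, 138 and 170.4 FPKM in the MG53-TG cultures 1 to 4, below and above the WT range of 68.8 to 83.2 FPKM (adjusted p = 0.791). Its log2 fold change was 1.06 (adjusted p = 5.66e-04) without MG53-TG samples 1 and 2 and -0.74 (adjusted p = 0.00201) without samples 3 and 4, the same division of samples as in the goblet marker sum, of which it is a part. Guca2a was thus among the values by which the pairs were chosen, so these p-values do not test it. Vipr1, a receptor that raises cyclic AMP, rose from 1.33 ± 0.159 to 4.99 ± 0.382 FPKM (SD, n = 4 for both genotypes, log2 fold change 1.37, adjusted p = 3.42e-05). The prostaglandin receptor Ptger4, also coupled to cyclic AMP, fell from 3.07 ± 0.263 FPKM (n = 4) to 0.692 ± 0.235 FPKM (SD, n = 3, MG53-TG sample 2 missing, adjusted p = 3.75e-04). Stk39, the kinase SPAK that activates Slc12a2, fell from 25.2 ± 3.80 to 8.50 ± 1.77 FPKM (SD, n = 4 for both genotypes, log2 fold change -1.47, adjusted p = 2.14e-04). Ahcyl1, whose protein IRBIT binds and activates Slc4a4, was at 80.8 ± 28.2 and 68.9 ± 16.6 FPKM (adjusted p = 0.622). Its relative Ahcyl2, named after its value was seen, rose from 28.6 ± 7.88 to 63.2 ± 18.6 FPKM (log2 fold change 1.11, adjusted p = 0.00622).

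Of the 5 aquaporins tested, 3 were higher and 1 lower, with a median of 1.33. Aqp3, a basolateral channel for water and glycerol, was at 0 to 0.356 FPKM in WT and at 4.84 to 9.66 FPKM in the MG53-TG cultures (log2 fold change 2.77, adjusted p = 4.83e-05). Aqp7, also a glycerol channel, was at 0 to 0.228 and 1.24 to 3.66 FPKM (log2 fold change 1.53, adjusted p = 0.00111), and Aqp11 rose from 5.12 ± 1.35 to 14.3 ± 2.94 FPKM (SD, n = 4 for both genotypes, log2 fold change 1.33, adjusted p = 9.53e-04). Aqp3 and Aqp7, with WT means of 0.155 and 0.108 FPKM, passed the 0.5 FPKM filter only through MG53-TG. Aqp4, a water channel of the basolateral side, fell from 25.8 ± 8.65 to 7.82 ± 2.39 FPKM (log2 fold change -1.57, adjusted p = 0.00296). Aqp1, the most abundant, was at 117, 129.7, 68.9 and 54.5 FPKM in the MG53-TG cultures 1 to 4, on both sides of the WT range of 73.2 to 89.8 FPKM (adjusted p = 0.823). Its log2 fold change was -0.42 (adjusted p = 0.0283) without MG53-TG samples 1 and 2 and 0.58 (adjusted p = 0.00575) without samples 3 and 4.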

How the data were processed

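Total RNA of 8 organoid samples, 4 WT and 4 MG53-TG, was sequenced. The authors deposited, for each sample, FPKM values of transcript events of 20 types. The submitters' processing notes name Cutadapt 1.9.1, HISAT2 2.0.1, HTSeq 0.6.1, DESeq2 and the build mm10 (GRCm38), and the study's methods credit the normalized FPKM to HTSeq, spelled Heseq there. How FPKM were assigned to single events is not given in the sources used here. Values reach down to 1e-06 FPKM, as model estimates of transcripts do, so no read counts were recovered and the depth is unknown.

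Exact duplicate entries were dropped. Each event was assigned to a gene by its Ensembl identifier, checked against GRCm38 exon boundaries. Of 128369 events 89.2% matched a boundary of the gene named, 6.16% matched another gene, 1.92% lay in the gene's span without a boundary and 2.72% were not placed. A gene's value is the summed FPKM of its start events, or of its end events if that mean was higher. Where a gene had no entry in a sample, its value was left out when the median of that genotype's remaining samples reached 0.5 FPKM, and was set to 0 in other cases.

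Genes whose mean reached 0.5 FPKM were tested with limma 3.58.1 (R 4.3.3, eBayes with trend) on log2(FPKM + 1), and p-values were adjusted by the Benjamini-Hochberg method and called at 0.05, where fold changes of low genes are understated by the added 1. That mean is over both genotypes, so some called genes passed the filter only through the genotype in which they were high. In data simulated with normal noise, with 200 of 10611 genes changed, the test recovered 72% of changes of 1 and 87% of changes of 2 on the log2 scale and called 11 unchanged genes. In the real comparison 44.4% of genes were called, a far larger part than was changed in the simulation. The simulated rates therefore cannot be taken as the rates of the real comparison. Start events were tested as the arcsine square root of their share of a gene's start FPKM, for events listed in all 8 samples with a mean share of 5% to 95%. Exact permutation tests were two-sided (Python 3.11.15, scipy 1.17.1). Alternatives varied the pseudocount, filter, scaling, replicate block, event type, treatment of absent values, gene assignment and each sample in turn. The members and lists were chosen with earlier results of these data known. Besides the members, the 4 largest non-overlapping calls of each list and up to 2 further genes with the highest means that were not called were named. A few genes that these rules would name are not reported here.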

Additional observations from a re-analysis of the deposited data

Results flagged for a closer look

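Of 84 groups of 4 values searched, those of the 6 measured genes and the named list genes in each genotype, 5 held a single value that stood apart from the other 3 by Dixon's criterion. Chance gives such a value in about 1 of 20 groups, or 4.2 here. None of the 5 was in Cftr, Slc9a3, Slc26a3, Slc26a6, Slc4a4 or Car2. The scaffold Pdzk1 was at 0 FPKM in WT sample 1 and at 0.248 to 0.281 FPKM in the others. The cotransporter Slc4a5 was at 0.909 FPKM in WT sample 2 against 0.480 to 0.526 FPKM, and at 10.1 FPKM in MG53-TG sample 4 against 5.29 to 6.04 FPKM. MG53-TG sample 2 had 0.623 FPKM of Slc4a11 and the others of that genotype 0, and the kinase Sgk2 was at 0.0816 FPKM in WT sample 3 and at 0 in the others.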

How the results depend on the processing

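Slc9a3, Slc26a3 and Slc26a6 stayed past the threshold in all 11 alternatives, with log2 fold changes of 2.23 to 3.26, 1.73 to 1.91 and 2.80 to 3.56, and with each sample left out (2.49 to 2.87, 1.64 to 1.79 and 3.03 to 3.34). The lowest value of Slc9a3 is from end events, which are of short forms alone. Cftr turned positive with median-of-ratios scaling (0.15), quantile normalization (0.10) and without MG53-TG replicates 1 and 2 (0.01), and spanned -0.23 to 0.20 with 1 sample left out. Slc4a4 passed the threshold with a minimum mean of 2 FPKM (-0.44, adjusted p = 0.0496, with fewer genes tested) and without MG53-TG replicates 3 and 4 (-0.70), and ranged from -0.54 to -0.34 with 1 sample left out, passing without MG53-TG 3 (adjusted p = 0.0344) or 4 (0.0435). It had no value from end events alone. The genes called lower among the 6 were thus 1 in these settings, and 0 to 1 with 1 sample left out. Car2 was -0.04 without MG53-TG replicates 3 and 4 and 0.17 to 0.58 with 1 sample left out. The 2 settings that leave out a pair of samples were chosen after seeing the data, and where a value turned the cause was not tested.

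With 1 sample left out, the ratios ranged from 1.59 to 2.01 (Slc26a3 over Cftr), 2.50 to 2.91 (Slc9a3 over Cftr) and 1.31 to 1.66 (Slc26a6 over Slc26a3), each at an exact permutation p of 0.0571, the smallest that 3 against 4 samples can give.

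The labels do not say whether same-numbered samples were prepared as pairs. Same-numbered samples had correlations of deviations of 0.0837, 0.0122, 0.0925 and -0.0549. These were not compared with differently numbered samples, so they cannot decide whether the samples were paired. With the replicate block, 3 of the 6 genes were higher and 0 lower, 1556 genes were higher and 2862 lower in all, and 1 gene of the sodium channel list was higher. Median-of-ratios scaling gave 2217 higher and 2222 lower genes, and quantile normalization 2057 and 2557, against 1700 and 3164 as deposited.

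Of the list counts, the SLC4 and SLC26 relatives had 1 higher gene without a filter and with start events only (1 to 2 with 1 sample left out) and 1 lower with a minimum mean of 2 FPKM. That minimum, which left fewer genes tested, gave 0 lower carbonic anhydrases, 2 higher aquaporins and 1 higher gene in the sodium channel list. End events alone gave 3 lower cyclic nucleotide and kinase regulators and 0 higher genes of the sodium channel list. The latter list had 4 higher and 2 lower genes without MG53-TG replicates 1 and 2, 0 higher without 3 and 4, and 0 to 3 higher and 1 to 2 lower with 1 sample left out. Without MG53-TG replicates 1 and 2, 2 aquaporins and 1 gene of the sodium-proton exchanger list were lower. The chloride secretion list had 3 to 6 lower genes with 1 sample left out, 3 of them without any single WT sample or MG53-TG 3.

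Among named genes that were not called, signs turned for Car9 (0.15 with median-of-ratios scaling, 0.31 without MG53-TG replicates 1 and 2, -0.20 to 0.17 with 1 sample left out), Chp1 (-0.00104 with quantile normalization, -0.04 without MG53-TG replicates 3 and 4), Ezr (0.09 with median-of-ratios scaling), Aqp1 (-0.42 without MG53-TG replicates 1 and 2, -0.11 to 0.30), Guca2a (-0.74 without MG53-TG replicates 3 and 4, -0.19 to 0.46), Ahcyl1 (-0.44 to 0.00350) and Prss8 (-0.41 to 2.27e-04). Further calls were gained for Slc12a7 with median-of-ratios scaling (0.44), quantile normalization (0.41), the highest single event allowed (0.33) and without MG53-TG 2 (0.35) or 1 and 2 (0.40), for Slc4a2 with both scalings (0.42 and 0.36) and without MG53-TG 3 and 4 (0.41), for Kcnq1 without MG53-TG 1 (-0.65) or 2 (-0.63) and for Atp1b3 without MG53-TG 2 (-0.72). Car3 lost its call without MG53-TG 3 and 4 (adjusted p = 0.0572). Further settings ended the calls of Clcn3 (start events only, the replicate block, without MG53-TG 1 and 2), of Slc4a7 (without MG53-TG 3 and 4) and of Nedd4l (the replicate block), and start events alone gave Scnn1a one (1.62, adjusted p = 0.00432). Start events of all genes whose share was called numbered 32 as reported, 88 with an unlisted event as 0, 0 with the replicate block and 10 to 25 with 1 sample left out. FPKM without counts leaves the counting error of each value unknown.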
